A study of Mus musculus with 10 samples.

Results

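The 10 genes described here encode 4 bone morphogenetic protein (BMP) ligands (*Bmp2*, *Bmp4*, *Bmp5* and *Bmp6*), 3 of their receptors (*Bmpr1a*, *Bmpr1b* and *Bmpr2*), 2 secreted inhibitors (*Chrdl2* and *Fst*) and the decoy receptor *Bambi*. They were chosen by name as members of this pathway, with earlier results of these data known. All 10 were found among the 29183 genes listed for both lineages. Single cells had been sorted into plates and their transcripts counted with unique molecular identifiers (UMIs), which mark each captured RNA molecule once. *Grem1-TdT* mice carried a tamoxifen-inducible Cre driven by *Grem1* and a *Rosa-TdTomato* reporter, and at 5 to 6 weeks of age they were put on tamoxifen chow, which they ate for 2 weeks. Cells came from dissected articular cartilage and growth plate and were sorted as live TdTomato+ cells, with no exclusion of blood or endothelial cells. *Lepr-TdT* mice carried a constitutive *Lepr*-driven Cre with the same reporter and were age-paired. Their whole bones were digested, and live CD45-Ter119-CD31- TdTomato+ cells were sorted. All animals were C57BL/6 and hind limbs were used. A TdTomato+ cell is one in which Cre had acted in the cell or its ancestor, so the reporter does not show that the driver gene was still expressed at collection.

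BMPs are secreted ligands that bind pairs of type I and type II serine/threonine kinase receptors, which then phosphorylate SMAD transcription factors. Secreted antagonists of the chordin, gremlin and follistatin families bind ligands outside the cell and keep them from their receptors, while pseudoreceptors and inhibitory SMADs limit the response within the receiving cell. In the skeleton the pathway is known for cartilage and bone formation, for joint specification and for the progression of growth plate chondrocytes, and *Grem1*, the gene whose promoter drives Cre here, itself encodes one of the antagonists.

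After wells with fewer than 350 detected genes were left out, 684 *Grem1*-lineage cells from 8 plates and 160 *Lepr*-lineage cells from 2 plates remained. The *Grem1*-lineage cells were split by 4 transcripts that are not members. Cells with more UMIs of *Clu*, *Cilp* and *1500015O10Rik* together than of *Cnmd* were called *Clu*/*Cilp*-high (414 cells, 43 to 68 per plate), and the others *Cnmd*-high (270 cells, 26 to 40 per plate). Only 4 cells were tied, 6 cells lay 1 UMI above the tie and 9 lay 1 UMI below it. The labels do not say from which tissue a well came, so the groups are named by their transcripts. Counting only genes in both tables, the median cell held 1217 UMIs in the *Clu*/*Cilp*-high group, 2218.5 in the *Cnmd*-high group and 505 in the *Lepr* lineage, so levels are given as CPM, in which the UMIs of each sum are scaled to one common total.

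*Col2a1*, the main cartilage collagen gene, was detected in all 684 *Grem1*-lineage cells, and the marrow stromal chemokine gene *Cxcl12* was detected in 99.4% of *Lepr*-lineage cells. Transcripts of other cell types were present too (CPM without TMM factors). Chondrocyte markers summed to 7075 CPM on *Lepr* plate 1 against 150 on plate 2, and haematopoietic markers to 5800 and 8653 CPM on the *Lepr* plates and to 0 to 4537 across the *Grem1*-lineage sums. Synovial or fibroblast markers moved with the split of the *Grem1* lineage, at 17045 to 23444 CPM in *Clu*/*Cilp*-high sums against 1520 to 3195 in *Cnmd*-high sums. Most of these UMIs were *Dcn* (10376 and 1233 UMIs), with *Col3a1* at 64 and 7, *Dpt* at 59 and 5 and *Clec3b* at 0, and their part in the differences between the groups was not tested. Osteoblast markers ranged from 142 to 37649 CPM across the *Clu*/*Cilp*-high sums and from 619 to 23154 across the *Cnmd*-high sums, and endothelial markers stayed at or below 122 in every sum of all 3 groups. The number of mice behind each plate was not given, so p-values measure the spread between plates. Because cells were summed per plate, fewer cells with a transcript and less transcript per cell cannot be told apart in the sums.

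The first comparison asked how the 2 groups of *Grem1*-lineage cells differ, with 1 sum per group on each of 8 plates. *Bmp2*, *Chrdl2* and *Bambi* were higher in the *Clu*/*Cilp*-high cells on 8 of 8 plates, and *Bmp4* and *Bmp5* were called higher from few UMIs, while the receptors and *Bmp6* and *Fst* were not called. Levels from here on are CPM after TMM normalisation, which corrects for differing RNA composition, unless another scale is named. Of 1075 genes with enough counts for edgeR's quasi-likelihood test, 41.3% had a Benjamini-Hochberg adjusted p under 0.05, 19.7% higher and 21.6% lower in *Clu*/*Cilp*-high cells. *Bmp2* and *Bambi* were the only members with enough counts, which they reached through the *Clu*/*Cilp*-high sums, and both were called higher. The other 8 members were tested in the same way without the filter, over 12514 genes with at least 1 UMI, of which 5.67% were called, 3.08% higher and 2.60% lower. Only 1075 of these genes passed the filter, so the shares are not matched to the members for UMI counts. Of the 10 members, 5 were called higher and 0 lower in that fit. Its adjusted p-values are much the smaller (2.72e-25 for *Bmp2* against 5.24e-07 with the filter), so an exact permutation of signs over the 8 plates, two-sided and not adjusted, is given beside it. The smallest p it can give is 0.00781.

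**Figure D1:**
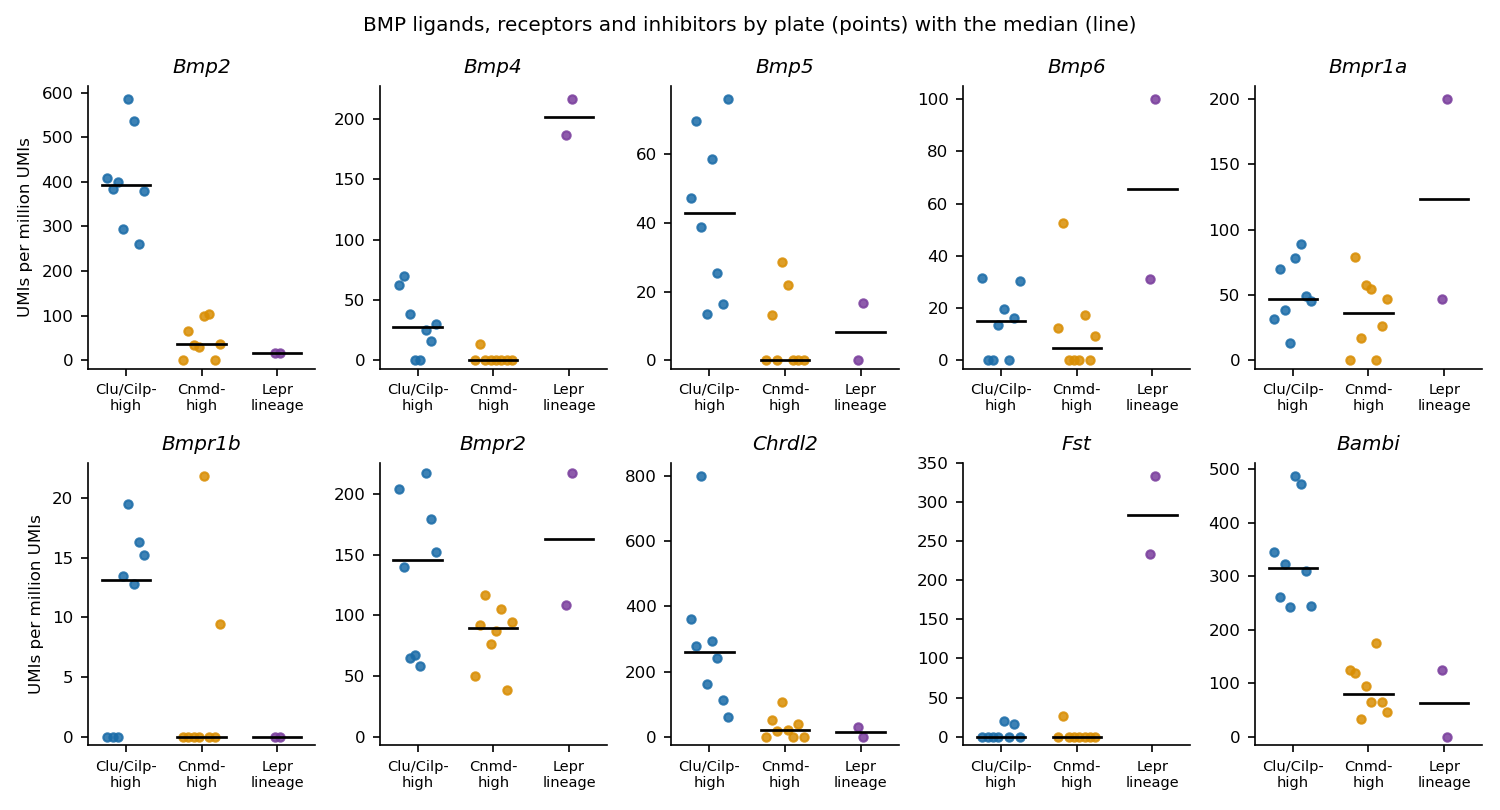
Each point is the sum of cells of 1 group on 1 plate, in CPM without TMM factors (y axis, linear, its own range in each panel), for the 2 groups of *Grem1*-lineage cells (8 plates each) and *Lepr*-lineage cells (2 plates), and each line is the median. *Bmp2* and *Bambi* points of the *Clu*/*Cilp*-high group lie above all others, *Fst* and *Bmp4* points of the *Lepr* lineage lie above all others, and the receptor panels overlap.

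*Bmp2*, a ligand that drives chondrocyte and osteoblast differentiation, gave 214 UMIs in *Clu*/*Cilp*-high cells and 29 in *Cnmd*-high cells. Sums of *Clu*/*Cilp*-high cells ran from 362 to 906 CPM with a median of 526, and the *Cnmd*-high sums from 0 to 128 with a median of 40.6. The groups did not overlap on any plate. The log2 fold change was 3.45 ± 0.39 (SE, n = 8 plates), with an adjusted p of 5.24e-07 by edgeR's quasi-likelihood test. The transcript was spread over many cells, since the 5 richest *Clu*/*Cilp*-high cells held 17.8% of the UMIs and 96 of 414 cells held at least 1. An earlier analysis of these data had found that cells of plates 1, 2 and 4 clustered apart from those of plates 5 to 9, for which the labels give no batch. The log2 change was 3.88 on the former plates and 3.33 on the latter.

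*Bmp2* was close to absent from *Lepr*-lineage cells, with 1 UMI on each plate. Those were 13.3 and 14.0 CPM, against 142 to 468 (median 208) on the 8 *Grem1*-lineage plates, and the lineages did not overlap. The second comparison tests this across the lineages (log2 change given as *Lepr* minus *Grem1*), and 29.0% of its 2944 genes were called, 12.2% higher and 16.8% lower in the *Lepr* lineage. *Bmp2* was lower by this test (log2 change -4.07 ± 0.73, SE, n = 2 and 8 plates, adjusted p = 0.000635 by edgeR's quasi-likelihood test). Set against the *Clu*/*Cilp*-high cells alone the change was -4.95 (adjusted p = 2.00e-05), and against the *Cnmd*-high cells alone, in the fit without the filter, the change was -1.76 ± 1.004 and not called (adjusted p = 0.305). The difference between these 2 changes was not tested. Of the 7 members with enough counts between lineages, 2 were called higher (*Bmp4* and *Fst*) and 3 lower (*Bmp2*, *Chrdl2* and *Bambi*) in the *Lepr* lineage. *Bmp4* and *Fst* passed the filter through the *Lepr* plates, and *Bmp2*, *Chrdl2* and *Bambi* through the *Grem1*-lineage plates. In each case that was the lineage in which the gene was high. Lineage cannot be told apart here from dissected tissue, collagenase type, sort gate or plate series, which all differed with it.

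*Bmp4*, a ligand of the same subfamily as *Bmp2*, had the opposite order of lineages. The *Lepr* plates held 12 and 13 UMIs, or 159 and 182 CPM, while the *Grem1*-lineage plates held 0 to 5 UMIs with a range of 0 to 39.1 CPM and a median of 16.8. The lineages did not overlap, and *Bmp4* was higher in the *Lepr* lineage (log2 change 3.25 ± 0.66, adjusted p = 0.00153). It was also higher against either group of *Grem1*-lineage cells taken alone, by 2.19 against *Clu*/*Cilp*-high cells (adjusted p = 0.0141) and by 5.82 against *Cnmd*-high cells (adjusted p = 9.85e-06). The change was 2.45 against plates 1, 2 and 4 of the *Grem1* lineage and 4.23 against plates 5 to 9, both called. The *Bmp4* transcript was concentrated, with 13 of its 25 *Lepr*-lineage UMIs in 5 cells.

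Within the *Grem1* lineage *Bmp4* gave 16 UMIs in *Clu*/*Cilp*-high cells on 6 of 8 plates and 1 UMI in *Cnmd*-high cells. The ratio of CPM without TMM factors was 19.7, with a 95% interval of 3.06 to 827 that covers counting error only. Without the filter it was called higher in *Clu*/*Cilp*-high cells (log2 change 3.42 ± 0.91, adjusted p = 0.00506, exact permutation p = 0.0313). The call was lost on plates 1, 2 and 4 alone (adjusted p = 0.0972), on plates 5 to 9 alone (0.163) and after cells were thinned to one depth (0.075), at the same direction and a log2 change of 2.73 or more.

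*Bmp5*, a ligand known for its part in the growth of skeletal elements, was sparse. It gave 22 UMIs in *Clu*/*Cilp*-high cells, from 19.6 to 113 CPM with a median of 55.8, and 6 UMIs in *Cnmd*-high cells, from 0 to 33.3 CPM with a median of 0. The groups overlapped, and *Clu*/*Cilp*-high sums were the higher on 7 of 8 plates. Its log2 change without the filter was 2.17 ± 0.68 (adjusted p = 0.0289, exact permutation p = 0.0156), and the call was lost when any 1 of plates 1, 2, 4, 7 or 9 was left out (adjusted p from 0.0559 to 0.172), after thinning (1.08, adjusted p = 0.449), and on plates 1, 2 and 4 (0.147) or 5 to 9 (0.413) alone. *Lepr*-lineage cells gave 1 UMI of *Bmp5*, and the difference between lineages was not called (-2.05 ± 1.27, adjusted p = 0.390, without the filter). *Bmp5* exons overlap those of *Gm26903* on the opposite strand. Without the filter 8.14% of 13283 genes were called between lineages, 3.40% higher and 4.74% lower in the *Lepr* lineage, and among the 10 members the same 5 were called as with the filter. These shares over all genes are not matched for UMI counts either.

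*Bmp6*, a ligand best known for its role in iron regulation and also made in skeletal tissue, gave 7 UMIs in each *Grem1*-lineage group. The *Clu*/*Cilp*-high sums reached 45.1 CPM and the *Cnmd*-high sums 53.0, with 3 and 4 plates at 0. The log2 change between groups was 0.43 ± 0.84 (adjusted p = 0.803, without the filter). The *Lepr* plates gave 2 and 6 UMIs, or 26.6 and 84.2 CPM, which overlapped the *Grem1*-lineage plates at 0 to 31.3, and the change of 1.70 ± 0.89 was not called (adjusted p = 0.261, without the filter). Exons of *Bmp6* overlap those of *Txndc5* on the opposite strand, and whether reads were counted by strand is not given in the sources used here.

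None of the 3 receptors had a called difference in either comparison by edgeR's quasi-likelihood test, with or without the filter. *Bmpr1a*, a type I receptor needed for chondrogenesis, gave 27 and 25 UMIs in *Clu*/*Cilp*-high and *Cnmd*-high cells, with medians of 67.7 and 43.9 CPM. The sums overlapped, at 19.6 to 143 against 0 to 79.5 CPM, and the log2 change was 0.61 ± 0.49 (adjusted p = 0.495, exact permutation p = 0.0781). *Bmpr1a* exons overlap those of *Gm17110* on the opposite strand. *Lepr* plates held 39.8 and 168 CPM, and the difference of 0.97 ± 0.60 from the *Grem1* lineage at 14.7 to 78.2 CPM was not called either (adjusted p = 0.232).

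*Bmpr1b*, a type I receptor that conveys the signal of growth and differentiation factors in limb cartilage, gave few UMIs in any group. There were 5 in *Clu*/*Cilp*-high cells, 3 in *Cnmd*-high cells and 0 of 160 *Lepr*-lineage cells held 1, which allows a share of up to 1.88%. No difference was detectable at this depth. The ratio between the *Grem1*-lineage groups was 2.05, with a counting interval of 0.400 to 13.2.

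*Bmpr2*, the type II receptor selective for BMPs, gave 72 and 53 UMIs in *Clu*/*Cilp*-high and *Cnmd*-high cells. The *Clu*/*Cilp*-high sums ran from 85.5 to 348 CPM with a median of 203, and the *Cnmd*-high sums from 46.6 to 128 with a median of 99.7. The ranges overlapped, and the *Clu*/*Cilp*-high sum was the lower on plates 4 and 6. The log2 change of 0.89 ± 0.33 missed the threshold (adjusted p = 0.0920, exact permutation p = 0.0547), and passed it with DESeq2 (adjusted p = 0.0490) and after 75 cells rich in osteoblast, blood or endothelial transcripts were left out (0.0443). Between lineages the 2 *Lepr* plates, at 92.9 and 182 CPM, lay within the *Grem1*-lineage range of 88.6 to 224, with a change of 0.12 ± 0.42 (adjusted p = 0.851).

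**Figure D2:**
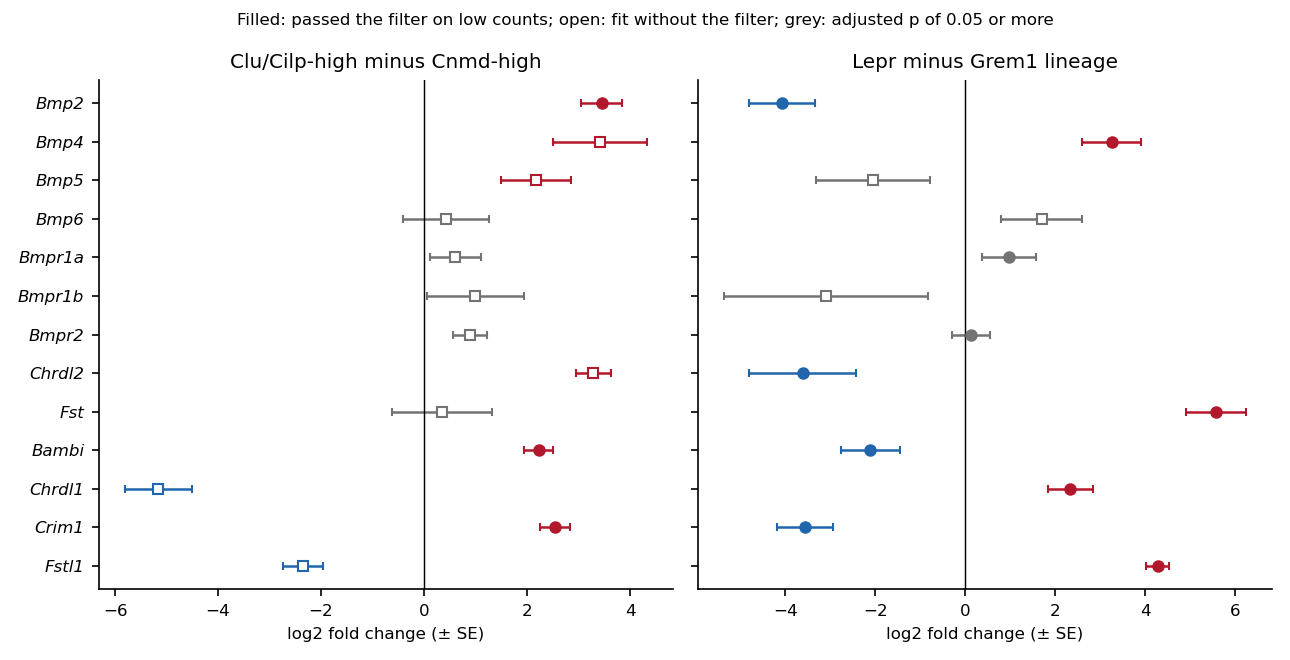
Points are log2 fold changes with bars of 1 SE from edgeR's quasi-likelihood fits, between the 2 groups of *Grem1*-lineage cells (left, 8 plates) and between lineages (right, 2 against 8 plates), as filled circles where the gene passed the filter on low counts and open squares where the fit without the filter is shown, red for higher, blue for lower and grey where the adjusted p was 0.05 or more. All 3 receptors are grey in both panels, *Bmp2*, *Chrdl2*, *Bambi* and *Crim1* point towards *Clu*/*Cilp*-high cells and away from the *Lepr* lineage, and *Chrdl1* and *Fstl1* point the other way in both. The 2 comparisons share the *Grem1*-lineage cells.

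*Chrdl2* encodes chordin-like 2, a secreted chordin-family protein that binds BMPs. It gave 158 UMIs in *Clu*/*Cilp*-high cells and 21 in *Cnmd*-high cells. By plate, the *Clu*/*Cilp*-high sums ran from 90.2 to 1060 CPM with a median of 375, and the *Cnmd*-high sums from 0 to 122 with a median of 22.3. The *Clu*/*Cilp*-high sum was the higher on 8 of 8 plates, although the ranges overlapped between the lowest *Clu*/*Cilp*-high plate (plate 9) and the highest *Cnmd*-high plate (plate 5). Without the filter the log2 change was 3.29 ± 0.33 (adjusted p = 1.98e-20, exact permutation p = 0.00781). *Chrdl2* UMIs were concentrated, in that plate 4 held 62 of the 158 UMIs and 1 cell held 19. Leaving plate 4 out gave a log2 change of 2.75 and leaving plate 5 out gave 4.11. The change was 4.54 on plates 1, 2 and 4 and 2.28 on plates 5 to 9, with each adjusted p at or below 2.83e-05.

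The *Lepr* lineage gave 2 *Chrdl2* UMIs on plate 1 and 0 on plate 2, or 26.6 and 0 CPM, against 28.3 to 510 (median 157) on the *Grem1*-lineage plates. After TMM the lineages did not overlap, by a narrow margin, and *Chrdl2* was called lower in the *Lepr* lineage (-3.62 ± 1.19, adjusted p = 0.0306). Without TMM factors they did overlap, since *Lepr* plate 1, at 31.1 CPM, lay above *Grem1*-lineage plate 9. The call was lost with only *Lepr* plate 1 (adjusted p = 0.196) or only *Lepr* plate 2 (0.0680). In these and other fits with 1 *Lepr* plate the lone plate is assumed to vary as the *Grem1*-lineage plates do. One of the 2 UMIs lay in 1 of 3 plate 1 wells with at least 10 chondrocyte-marker UMIs, and without those wells the change was -4.45 (adjusted p = 0.0197). Against *Cnmd*-high cells alone it was not called (-1.26 ± 1.09, adjusted p = 0.577, without the filter).

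*Fst* encodes follistatin, which binds activins and, less tightly, BMPs, and it was higher in the *Lepr* lineage. The *Lepr* plates held 15 and 20 UMIs, or 199 and 281 CPM, while the 8 *Grem1*-lineage plates held 4 UMIs in all, with 5 plates at 0 and a highest value of 15.6 CPM. The lineages were far from overlapping, with a log2 change of 5.57 ± 0.67 (adjusted p = 1.85e-05). The ratio of CPM without TMM factors was 83.2, with a counting interval of 29.8 to 322. *Fst* was spread evenly over the *Lepr* lineage, at 17.6% of cells on plate 1 and 17.4% on plate 2 and no more than 2 UMIs in a cell. It stayed higher against either *Grem1*-lineage group alone, by 5.17 against *Clu*/*Cilp*-high cells (adjusted p = 5.28e-05) and by 5.73 against *Cnmd*-high cells (adjusted p = 2.18e-05). With 2 UMIs in each *Grem1*-lineage group, no difference between those groups was detectable at this depth. The annotated *Fst* exons overlap those of *Gm47040* on the opposite strand.

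*Bambi* encodes a transmembrane pseudoreceptor that resembles type I receptors but lacks a kinase domain. It gave 177 UMIs in *Clu*/*Cilp*-high cells and 57 in *Cnmd*-high cells. The *Clu*/*Cilp*-high sums ran from 338 to 758 CPM with a median of 428, and the *Cnmd*-high sums from 36.0 to 213 with a median of 95.4. The groups did not overlap, and *Bambi* was higher in *Clu*/*Cilp*-high cells (log2 change 2.23 ± 0.28, adjusted p = 2.05e-06 by edgeR's quasi-likelihood test). Unlike *Bmp2*, it was detected in *Cnmd*-high cells on all 8 plates.

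In the *Lepr* lineage all 8 *Bambi* UMIs came from plate 1, at 106 CPM, and plate 2 gave 0, against 149 to 458 (median 216) on the *Grem1*-lineage plates. After TMM the lineages did not overlap, and *Bambi* was called lower in the *Lepr* lineage (-2.11 ± 0.66, adjusted p = 0.0238). Without TMM factors they did overlap, since *Lepr* plate 1, at 124 CPM, lay just above *Grem1*-lineage plate 9. With *Lepr* plate 1 as the only *Lepr* plate the change was -1.20 and the call was lost (adjusted p = 0.190), as it was with *Grem1*-lineage plates 1, 2 and 4 alone (-1.92, adjusted p = 0.0833). Plate 1 is the plate with chondrocyte transcripts, and 2 of its 8 *Bambi* UMIs lay in the 3 wells named above. Without those wells the change was -2.43 (adjusted p = 0.0121). The fit with plate 2 as the only *Lepr* plate gave -7.84, and with 0 UMIs on that plate the size of the change is not determined. Leaving out the 75 *Grem1*-lineage cells rich in other markers, which held 13 of the 177 *Clu*/*Cilp*-high and 18 of the 57 *Cnmd*-high *Bambi* UMIs, gave -2.10 between lineages (adjusted p = 0.0162) and 2.32 between the groups (adjusted p = 4.63e-07). Against *Cnmd*-high cells alone *Bambi* was not called (-0.84 ± 0.64, adjusted p = 0.497, without the filter).

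Across the 3 groups on one scale, CPM without TMM factors, the order by median was *Clu*/*Cilp*-high, *Cnmd*-high and then *Lepr* for *Bmp2* (392, 35.5 and 16.1), *Chrdl2* (261, 19.3 and 15.5) and *Bambi* (316, 80.6 and 62.2). For *Bmp2* and *Bambi* the first group stood clear of the second and the second overlapped the third, and for *Chrdl2* both neighbours overlapped. The order was *Lepr*, *Clu*/*Cilp*-high and *Cnmd*-high for *Bmp4* (202, 28.0 and 0), where only the *Lepr* lineage stood clear. *Fst* had a median of 283 in the *Lepr* lineage and a median of 0 in both other groups. For *Bmp5*, *Bmp6*, *Bmpr1a*, *Bmpr1b* and *Bmpr2* every pair of neighbours in the order overlapped.

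Counted by cells, *Bmp2* was found in 23.2% of *Clu*/*Cilp*-high, 7.78% of *Cnmd*-high and 1.25% of *Lepr*-lineage cells, *Bambi* in 26.6%, 15.9% and 5.00%, *Chrdl2* in 15.9%, 5.19% and 1.25%, and *Fst* in 0.483%, 0.370% and 17.5%. Because the groups differ in depth, each cell was also thinned to 529 UMIs, which left out 1, 1 and 83 shallower cells. The thinned shares were 12.8%, 2.23% and 2.60% for *Bmp2*, 14.5%, 5.58% and 3.90% for *Bambi*, and 8.23%, 1.49% and 0 of 77 cells for *Chrdl2*, where 0 allows a share of up to 3.90%. Thinning thus kept *Clu*/*Cilp*-high cells the highest for these 3 genes. It left *Fst* in 16.9% of *Lepr*-lineage cells and in 0 of 413 *Clu*/*Cilp*-high cells, which allows up to 0.726%. The apparent excess of *Bmpr2* in *Cnmd*-high cells, at 15.9% against 13.5% as counted, was gone after thinning, at 5.58% against 5.81%. The 13 chondrocyte markers were found in 0 to 37.5% of *Lepr*-lineage cells as counted, with *Col2a1* in 3.13%, *Col11a1* in 8.13% and *Cytl1* in 37.5%. The shares of *Bmp2*, *Chrdl2* and *Bambi* in that lineage lay within this range, as did those of *Fst* and *Bmp4* (10.6%). Its top was set by *Cytl1* alone, so the range cannot tell background from expression. The low shares of *Bmp2*, *Chrdl2* and *Bambi* are therefore read neither as expression nor as background, which was not tested.

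**Figure D3:**
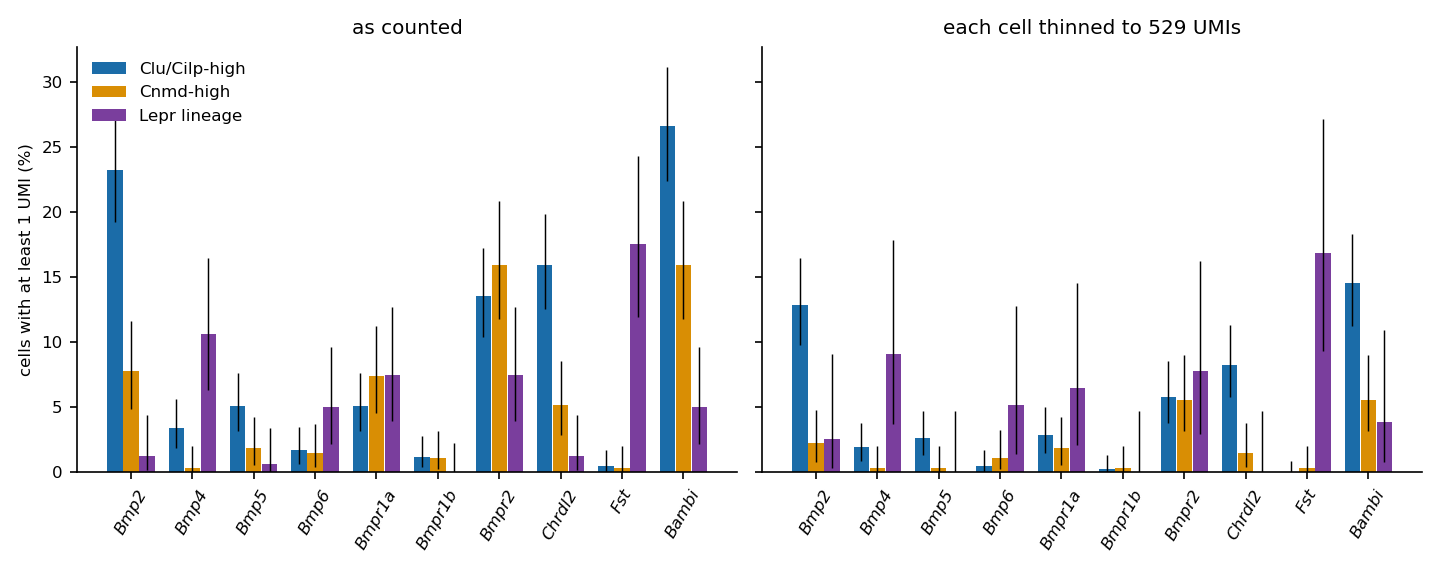
Bars are the percentage of cells with at least 1 UMI (y axis) of each member in *Clu*/*Cilp*-high (414), *Cnmd*-high (270) and *Lepr*-lineage (160) cells, as counted (left) and after each cell was thinned to 529 UMIs (right), with exact 95% Clopper-Pearson intervals for counting error only. *Bmp2*, *Chrdl2* and *Bambi* are highest in the *Clu*/*Cilp*-high group in both panels and *Fst* and *Bmp4* in the *Lepr* lineage.

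Taken by role, at least 1 member ligand was seen in 30.4% of *Clu*/*Cilp*-high, 10.7% of *Cnmd*-high and 16.9% of *Lepr*-lineage cells, and at least 1 of the 3 inhibitors (*Chrdl2*, *Fst* and *Bambi*) in 38.6%, 21.1% and 22.5%. Receptor UMIs were seen in 19.1%, 23.3% and 14.4% of cells without adjustment for depth, and 35.0%, 54.8% and 58.1% of cells held no member at all. Ligand and inhibitor were seen in the same cell in 49 of 414 *Clu*/*Cilp*-high, 6 of 270 *Cnmd*-high and 8 of 160 *Lepr*-lineage cells. These counts were not set against those that the separate shares would give. Among the 96 *Clu*/*Cilp*-high cells with *Bmp2*, 26.0% also held *Bambi* and 19.8% held *Chrdl2*, beside 26.6% and 15.9% of all cells of that group. These shares were not tested, were not adjusted for depth per cell, and all cells include those with *Bmp2*.

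The members were set beside a list of 68 BMP pathway genes, also chosen with earlier results known, of which 37 were listed for both lineages. Between the *Grem1*-lineage groups *Bmp2*, *Bambi*, *Crim1* and *Dlx5* had enough counts, the first 3 of them through the *Clu*/*Cilp*-high sums, so their direction is no count over the list. Without the filter 32 were tested, 11 called higher and 3 lower, beside 3.08% and 2.60% of all genes, with a median log2 change of 0.89 beside 0.01. Those shares are over 12514 genes, of which 1075 passed the filter, and were not matched for UMI counts, so no enrichment is read from them. Between lineages 15 passed the filter, some through the lineage in which they were high, and 4 were called higher in the *Lepr* lineage (*Bmp4*, *Fst*, *Chrdl1* and *Fstl1*) and 5 lower (*Bmp2*, *Chrdl2*, *Bambi*, *Crim1* and *Dlx5*), beside 29.0% of all genes called. Without the filter 33 were tested, 5 called higher and 7 lower, beside 3.40% and 4.74% of all genes. Those shares too were not matched for UMI counts, as 2944 of 13283 genes passed the filter. Of the 10 antagonists among the 33, with the transmembrane *Crim1* counted beside the secreted ones, 4 were called higher and 2 lower. Further calls in this fit, by edgeR's quasi-likelihood test, were *Bmper*, which encodes a BMP-binding endothelial regulator, with 7 UMIs on *Lepr* plates and 0 on *Grem1*-lineage plates (adjusted p = 0.000974), the ligand gene *Bmp8a*, with 0 and 55 UMIs (0.00704), and the transcription factor gene *Atoh8*, with 0 and 44 UMIs (0.0214).

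*Chrdl1*, which encodes the sister protein of chordin-like 2, ran against *Chrdl2*. It gave 1 UMI in *Clu*/*Cilp*-high cells, on plate 9, and 91 in *Cnmd*-high cells, where it ranged from 13.3 to 244 CPM with a median of 189. The *Cnmd*-high sum was the higher on every one of the 8 plates, and the log2 change without the filter was -5.16 ± 0.65 (adjusted p = 3.00e-13, exact permutation p = 0.00781). The ratio of CPM without TMM factors was 0.0135, with a counting interval of 0.000339 to 0.0774. On plates 1, 2 and 4, which held 12 of the 91 UMIs, the call was lost at the same direction (-4.88, adjusted p = 0.0572). *Chrdl1* was higher again in the *Lepr* lineage, at 421 and 505 CPM against 7.82 to 150 on the *Grem1*-lineage plates (2.33 ± 0.51, adjusted p = 0.00264), and it was higher there than in *Cnmd*-high cells alone (1.75, adjusted p = 0.0163). The lineage change was 3.89 against plates 1, 2 and 4 and 1.87 against plates 5 to 9.

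Without the filter 9 antagonists, with *Crim1* counted beside the secreted ones, were tested between the *Grem1*-lineage groups. Of these 2 were called higher (*Chrdl2* and *Crim1*), 2 lower (*Chrdl1* and *Fstl1*) and the other 5, *Fst* among them, were not called. Over all 12514 genes 3.08% were called higher and 2.60% lower, not matched for UMI counts. *Crim1*, a transmembrane protein with chordin-like repeats that binds BMPs, gave 294 to 816 CPM in *Clu*/*Cilp*-high cells (median 518) and 31.1 to 187 in *Cnmd*-high cells (median 77.4). The groups did not overlap (log2 change 2.54 ± 0.29, adjusted p = 5.24e-07), and the *Lepr* plates lay lower still, at 14.0 and 26.6 CPM against 134 to 356 on the *Grem1*-lineage plates (-3.56 ± 0.63, adjusted p = 0.000555). *Crim1* exons overlap those of *Fez2* on the opposite strand. *Fstl1*, a secreted follistatin-like glycoprotein reported to bind BMP4, gave 16 UMIs in *Clu*/*Cilp*-high cells and 117 in *Cnmd*-high cells (-2.35 ± 0.38, adjusted p = 9.11e-08, without the filter, exact permutation p = 0.0234). It stood far higher in the *Lepr* lineage, at 1925 and 3254 CPM against 80.7 to 211 (4.27 ± 0.26, adjusted p = 1.15e-08).

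**Figure D4:**
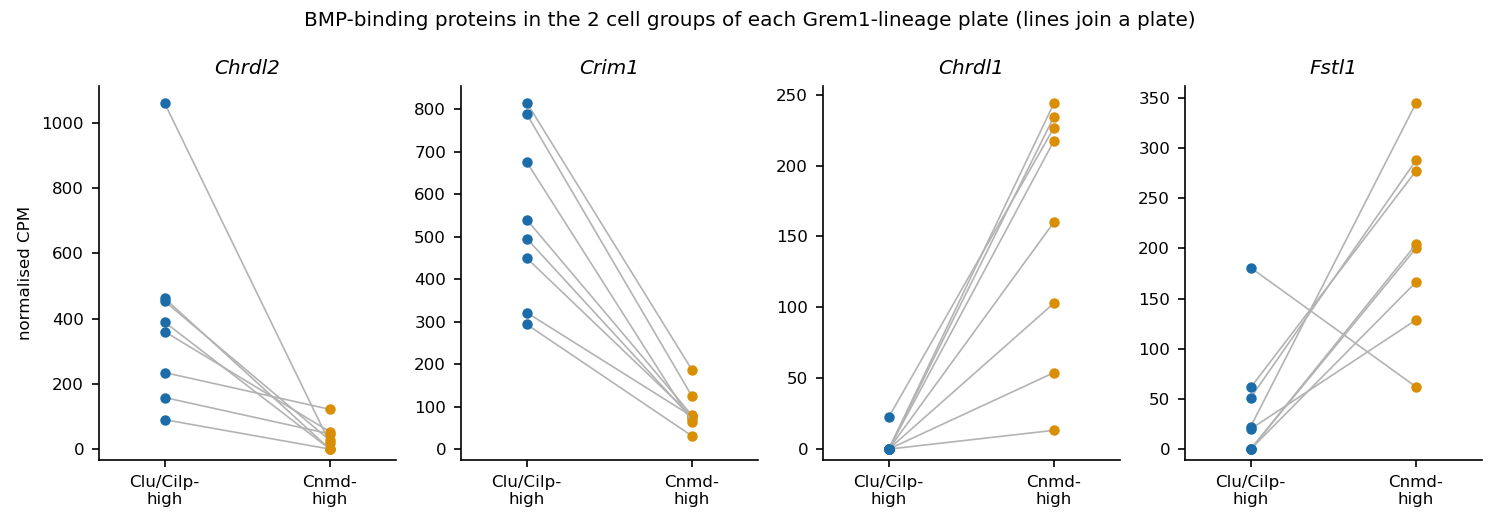
Normalised CPM (y axis, linear, its own range in each panel) of 4 BMP-binding proteins in the *Clu*/*Cilp*-high and *Cnmd*-high sums of each of 8 *Grem1*-lineage plates, with a line joining the sums of a plate. *Chrdl2* and *Crim1* fall from left to right on all 8 plates, *Chrdl1* rises on all 8 from values of 0 on 7 plates, and *Fstl1* falls on 1 plate only.

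*Dlx5*, a homeobox gene that responds to BMPs, was the only target gene with enough counts. It was called higher in *Clu*/*Cilp*-high cells (121 to 383 against 36.0 to 227 CPM, log2 change 1.03 ± 0.29, adjusted p = 0.00780) and lower in the *Lepr* lineage (-1.34 ± 0.44, adjusted p = 0.0318). The group difference had this direction on 8 of 8 plates after TMM, but without TMM factors *Dlx5* was lower in *Clu*/*Cilp*-high cells on plate 1 (94.3 against 99.99 CPM) and plate 5 (107 against 134), and the call was lost on plates 1, 2 and 4 alone (adjusted p = 0.140). The lineage call was lost without either *Lepr* plate (adjusted p = 0.0703 and 0.180), with DESeq2 (0.0731) and against *Cnmd*-high cells alone (-0.69, adjusted p = 0.378). Other ligands and receptors were called between the *Grem1*-lineage groups only without the filter, and are named here after their values were seen. *Bmp7* was lower in *Clu*/*Cilp*-high cells (10 against 52 UMIs, -1.82 ± 0.52, adjusted p = 0.0115), and *Acvr1*, a type I receptor, was higher (45 against 18 UMIs, 1.72 ± 0.46, adjusted p = 0.00554, exact permutation p = 0.00781).

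*Gdf5* and *Gdf6*, BMP-family ligands known from joint formation, gave 15 and 8 UMIs in *Clu*/*Cilp*-high cells and 0 in *Cnmd*-high cells. Against a floor of 3 UMIs over the group the ratios were 6.16 and 3.29. The counting intervals of the ratios without a floor began at 4.42 and 2.10. Each was detected on 4 of 8 plates (exact permutation p = 0.125). *Gdf5* was not called on plates 5 to 9 alone (adjusted p = 0.474) or with DESeq2 (0.497). With the plate as a replicate block *Gdf6* was no longer called (adjusted p = 0.324 against 0.0203), nor was the type II receptor *Acvr2b* with its 6 against 0 UMIs (0.471 against 0.0404). The *Gdf6* call was lost in 8 of 15 alternatives, with an adjusted p of up to 0.0822 by edgeR's quasi-likelihood test when 1 plate was left out. *Bmp7* was no longer called without plate 1 (adjusted p = 0.102) or plate 4 (0.0634), after thinning (0.449) or on plates 5 to 9 alone (0.474).

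*Grem1* and several targets were counted only in the *Lepr*-lineage table, so no comparison was made. *Grem1* gave 11 UMIs on *Lepr* plate 1 and 10 on plate 2, in 19 of 160 cells, or 69.3 and 68.7 CPM over all genes of that table. *Id3*, which encodes an inhibitor of basic helix-loop-helix factors and is induced by BMPs, gave 123 and 113 UMIs (775 and 777 CPM) in 98 cells, and *Id4* gave 21 and 15 (132 and 103 CPM). These 3 were alike on both plates, whereas *Id1*, named here after its values were seen, gave 12 UMIs on plate 1 and 0 on plate 2. *Nog*, which encodes the antagonist noggin and is also named outside the rule for named genes, gave 0.

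For the 3 members with most UMIs in the *Grem1* lineage, the genes whose log2 CPM followed theirs most closely over the 16 plate and group sums were sought among the genes with enough counts, as a description. *Bmp2* was followed by *Crim1* (Pearson r = 0.93), *D630045J12Rik* (0.92) and the hedgehog co-receptor *Cdon* (0.92). *Bambi* was followed by the tetraspanin *Cd9* (0.93), the chemokine scavenger *Ackr3* (0.91) and *Carmil1* (0.91). *Chrdl2* was followed by *Enpp2* (0.93), which encodes autotaxin, the carboxypeptidase *Cpe* (0.92) and *Enpp1* (0.91), which generates pyrophosphate. The 16 sums share plates and fall into the 2 groups, which carries much of these values. Within the 8 *Clu*/*Cilp*-high sums r was 0.77 for *Bmp2* with *Crim1*, 0.51 for *Bambi* with *Cd9* and 0.62 for *Chrdl2* with *Enpp2*, and within the 8 *Cnmd*-high sums it was 0.59, 0.60 and 0.91.

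In the GENCODE annotation of the mouse GRCm38 genome (mm10) the members that carry these differences are single protein-coding genes. *Bmp2* lies on chromosome 2 from 133552159 to 133562885, *Bmp4* on chromosome 14 from 46383520 to 46390669, *Chrdl2* on chromosome 7 from 100006172 to 100034728, *Fst* on chromosome 13 from 114452290 to 114458951 and *Bambi* on chromosome 18 from 3507923 to 3516404. *Chrdl1*, the gene that ran against *Chrdl2*, lies on chromosome X from 143285674 to 143394262. No exon of *Bmp2*, *Chrdl2*, *Bambi* or *Chrdl1* is shared with another annotated gene, while *Bmp4* exons overlap *Gm15217* on the opposite strand.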

How the data were processed

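Single cells of 8 *Grem1*-lineage and 2 *Lepr*-lineage plates were sequenced with UMIs. The deposited values are raw UMI counts per gene and cell, made by the authors; the submitters' processing notes name UMI-tools, STAR, featureCounts, SAMtools and Seurat with mm10, without versions. The *Grem1* table ends part way through the gene list, so 1 incomplete row was left out and genes listed for both lineages (29183) were used. Wells with at least 350 detected genes were kept (844 of 930), and no doublet caller was run. All plates use the same 96 well barcodes, so barcodes cannot show shared cells. Kept cells were summed per plate, and per plate and group. Totals were 133289 to 179071 UMIs per *Grem1*-lineage plate and 59981 to 64310 per *Lepr*-lineage plate. Sums were tested with edgeR 4.0.16 (TMM, filterByExpr, quasi-likelihood test, Benjamini-Hochberg threshold 0.05) in R 4.3.3; DESeq2 1.42.0 was an alternative. SE is the size of the log2 change divided by the root of F. Scripts were tested on simulated data.

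The members and lists were chosen with earlier results of these data known. Named genes are the 10 members, pathway genes past the threshold, *Lepr*-table antagonists or targets with at least 30 UMIs, *Grem1*, and the 3 genes most alike to each of 3 members; *Id1* and *Nog* were added after their values were seen. Fits without the filter under further settings, and the 2 settings that leave out cells by marker counts, were added after seeing the data. Plate pairs of the 2 *Grem1*-lineage groups come from the same plate, and deviations from group means correlated at 0.18 to 0.45 in all 8 pairs. Intervals (exact, 95%) and limits for 0 (3 counts) cover counting error only.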

Additional observations from a re-analysis of the deposited data

Results flagged for a closer look

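Among 24 sets of 8 plates in which a member was detected on at least 4 plates, 6 held a plate far from the others by Dixon's ratio. Its rate of about 1 in 20 by chance holds for independent, normally distributed values. These are CPM from few UMIs, and the sums over all *Grem1*-lineage cells contain both groups, so no excess is read from the 6. *Chrdl2* on plate 4 stood at 510 CPM over all *Grem1*-lineage cells (next plate 185) and at 1060 in the *Clu*/*Cilp*-high cells (next 462), and *Chrdl2* in *Cnmd*-high cells stood at 122 on plate 5. Plate 7 was high over all *Grem1*-lineage cells for *Bambi*, at 458 CPM, and for *Bmpr2*, at 224. *Bmp6* in *Cnmd*-high cells stood at 53.0 CPM on plate 2, from 4 UMIs, all in 1 cell. The *Clu*/*Cilp*-high osteoblast-marker sum was high on plate 7 (37477 CPM) and on plate 5 (37649 CPM, both without TMM factors), and its part in the plate 7 values was not tested. Without plate 7 the log2 change of *Bambi* between the groups was 2.29 (adjusted p = 1.26e-06 by edgeR's quasi-likelihood test).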

How the results depend on the processing

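Between lineages 853 genes were called in the main analysis. The count was 529 to 850 with 1 plate left out, the lowest without *Lepr* plate 2, and, with plates 1 and 2 of each lineage only, 489 with the plate number as a replicate block and 451 without it; those numbers are shared labels only (correlation of deviations 0.06). Between the *Grem1*-lineage groups 444 genes were called, 385 to 441 with 1 plate left out, 181 of 392 after cells were thinned to one depth, 239 on plates 1, 2 and 4, 710 of 12514 without the filter and 515 with the replicate block, which changed no call of *Bmp2*, *Bambi*, *Chrdl2*, *Bmp4*, *Bmp5* or *Chrdl1*. Fewer genes or plates entered each of the lower counts. Over 31 gene results and 566 alternatives, 526 kept their side of the threshold and, where called, their direction, 38 lost the call, 2 gained it (both *Bmpr2*) and 0 reversed a called direction. That count leaves out *Bmp2*, *Chrdl2* and *Bambi* between the *Lepr* lineage and *Cnmd*-high cells alone, where they were below the filter and were not called without it (adjusted p = 0.305, 0.577 and 0.497 by edgeR). It also leaves out other settings that gave a gene no value, so *Bmpr1a* between lineages had 16 of 24 alternatives. Sparse results such as *Bmpr1b* and *Fst* between groups, for which no difference was detectable at this depth, count as kept. Their unchanged side is no sign of stability. *Bmp2* between groups stayed within 3.30 and 3.88 and *Bambi* within 2.02 and 2.40 in the 21 of 22 alternatives that gave each a value. *Fst* between lineages stayed within 4.82 and 6.15 in 24. Only 2 *Lepr* plates and a median of 505 UMIs per cell limit what could be detected there. No scaling moved the median of all genes by over 0.1 on the log2 scale.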
